A study of Mus musculus with 2 samples.

Results

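The 10 islet transcripts described here were followed in immune cells taken from the islets of NOD mice: the insulin genes Ins1 and Ins2, the other hormone genes Gcg, Sst, Ppy, Pyy and Iapp, and the secretory granule genes Chga, Chgb and Pcsk2. They are 10 of the 27998 genes listed in the count matrices and were matched by gene symbol. The mice were female NOD/ShiLtJ, an inbred strain that develops autoimmune diabetes spontaneously, and were 12 weeks or 7 weeks old. Leukocytes of the islets were gated on CD45.1 by flow cytometry, and 1 single-cell library (10x Genomics Chromium, 3′ chemistry) was made at each age. How many mice went into a library is not stated in the labels. Since each age has a single library, ages were compared without a test, and age and library cannot be told apart.

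The islet of Langerhans holds several endocrine cell types, each named for its main hormone: beta cells make insulin and amylin (Iapp), alpha cells make glucagon (Gcg), delta cells make somatostatin (Sst) and PP cells make pancreatic polypeptide (Ppy). Leukocytes are not known to transcribe these genes at levels near those of endocrine cells. In NOD mice insulin, chromogranin A and amylin are also sources of peptides recognised by autoreactive T cells, and resident islet phagocytes are known to take up beta cell granules. In droplet libraries RNA released by damaged cells is captured together with that of every cell.

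The 12 week library held 2812 barcodes and 19288252 unique molecular identifiers (UMIs, 1 for each captured RNA molecule), and the 7 week library held 1113 barcodes and 8701184 UMIs. Barcodes were placed by marker UMIs, in this order: macrophage (C1qa, C1qb and C1qc together at least 10), dendritic (Cst3 and H2-Aa at least 10 each), plasmacytoid dendritic or pDC (Siglech at least 3), B cell (Cd79a at least 2) and T cell (Cd3d, Cd3e and Cd3g together at least 1). These classes held 34, 203, 34, 654 and 1761 barcodes at 12 weeks, and 11, 79, 23, 177 and 784 barcodes at 7 weeks. More than 1 rule was met by 333 barcodes at 12 weeks and 133 at 7 weeks. Markers that no rule used matched the class names: Csf1r had a UMI in 94.1% of macrophage barcodes at 12 weeks and in all of them at 7 weeks, Tcf4 in all pDC barcodes at 12 weeks and 95.7% at 7 weeks, Ms4a1 in 96.8% and 89.8% of B cell barcodes, and Lck in 92.4% and 93.5% of T cell barcodes. The dendritic class was the loosest, since Flt3 had a UMI in 63.1% of its barcodes at 12 weeks and 67.1% at 7 weeks, while Cd79a, a B cell gene, had one in 27.6% and 11.4%. The plasma cell genes Jchain and Mzb1 together stood at 93.6 per 10000 UMIs in dendritic, 26.2 in B cell and 1.04 in T cell barcodes at 12 weeks, and at 50.01, 27.6 and 0.427 at 7 weeks, with a UMI in 52.7% and 45.6% of dendritic barcodes. Their part in the dendritic results was not tested. Barcodes in which the 10 transcripts exceeded 10% of UMIs were kept out of these classes and are described apart. They were 5 at 12 weeks and 1 at 7 weeks, and each met the dendritic or T cell rule. Without that limit the dendritic class held 206 and the T cell class 1763 barcodes at 12 weeks. At 7 weeks the T cell class then held 785. The libraries shared 2 barcode sequences.

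Ins1 (chr19:52264297-52265476, plus strand) and Ins2 (chr7:142678656-142743381, minus strand) both encode preproinsulin, and Ins2 is the gene homologous to insulin of other mammals. The ends of their coding sequences, which encode the insulin A chain and the stop codon, are shown because the difference between the genes is so small there. Capitals mark the bases that differ.
Ins1: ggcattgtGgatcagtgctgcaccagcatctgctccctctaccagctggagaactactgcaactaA
Ins2: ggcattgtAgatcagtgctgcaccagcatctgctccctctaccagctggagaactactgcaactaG
Only 2 of these 66 bases differ in the GENCODE vM21 transcripts (GRCm38), and the longest run shared by the transcripts compared was 56 bases. A read inside that run cannot be given to one gene, so the sum of Ins1 and Ins2, called insulin here, is used beside the single genes.

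At 12 weeks the 10 transcripts were found at similar low levels in every class, and at 7 weeks they were lower in dendritic, pDC, B and T cell barcodes. The level is the number of UMIs of the 10 transcripts in every 10000 UMIs of the class, with an exact Poisson 95% interval; all intervals given here cover counting error only. At 12 weeks it was 1.70 (1.35 to 2.11) in macrophage, 2.23 (2.06 to 2.42) in dendritic, 2.07 (1.54 to 2.73) in pDC, 1.28 (1.17 to 1.40) in B cell and 1.49 (1.42 to 1.56) in T cell barcodes. At 7 weeks it was 2.97 (2.10 to 4.07) in macrophage, 0.456 (0.344 to 0.592) in dendritic, 0.884 (0.547 to 1.35) in pDC, 0.20 (0.127 to 0.300) in B cell and 0.316 (0.271 to 0.365) in T cell barcodes. The 12 week classes thus lay close together, and the 7 week classes spread over a wide range with the lymphocytes lowest.

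**Figure D1:**
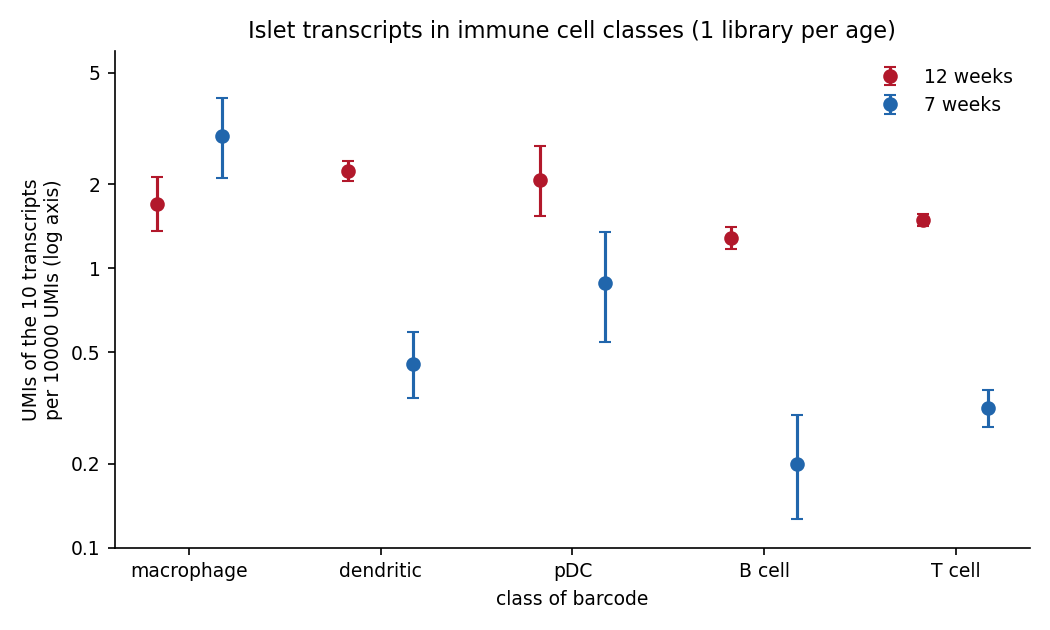
UMIs of the 10 islet transcripts per 10000 UMIs (log axis) in each class of barcode, 12 weeks (red) left of 7 weeks (blue), with exact Poisson 95% intervals for counting error and 1 library per age. The 12 week points lie between 1.28 and 2.23, and the 7 week points between 0.20 in B cell and 2.97 in macrophage barcodes.

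The 12 over 7 week ratio of these levels was 4.90 (3.72 to 6.57) in dendritic, 2.35 (1.38 to 4.12) in pDC, 6.41 (4.22 to 10.2) in B cell and 4.72 (4.04 to 5.54) in T cell barcodes. In macrophage barcodes it was 0.574 (0.386 to 0.866). The 7 week macrophage level rested on 1 barcode, which held 24 of the 38 UMIs of that class, 13 of them from Sst. Without barcodes of 10 or more UMIs of the 10 transcripts, a choice made after seeing the data, the macrophage ratio was 1.36 (0.769 to 2.61) and the dendritic ratio 3.28 (2.47 to 4.43). The acinar enzyme transcripts of the exocrine pancreas differed between the libraries in the same direction: outside barcodes with more than 1% acinar UMIs, the 12 over 7 week ratio of 23 acinar genes was 6.84 (5.97 to 7.87) in T cell, 10.5 (7.38 to 15.6) in B cell and 3.92 (3.06 to 5.10) in dendritic barcodes. Over all barcodes it was 23.5 (20.6 to 27.0) in T cell and 2.90 (2.40 to 3.52) in B cell barcodes. Transcripts of red cells, 4 globin genes taken without barcodes above 1%, went the other way in T cell barcodes, at 0.730 (0.605 to 0.883). The part of a library-wide difference in free RNA in these ratios was not tested.

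Among single genes, counts of ratios of at least 2 stand beside the share of all tested genes past that ratio, where a tested gene had at least 10 UMIs over both ages in the class. In T cell barcodes 7 of the 10 transcripts were tested and 5 were at least 2-fold higher at 12 weeks (Ins1, Ins2, Gcg, Pyy and Chga), against 4.39% of all genes. In B cell barcodes 5 were tested and 4 were higher (Ins1, Ins2, Gcg and Iapp), against 4.72% of all genes. The same 4 genes were higher in dendritic barcodes, of 5 tested, against 6.17% of all genes. In pDC barcodes all 3 tested were higher (Ins1, Ins2 and Gcg), against 8.23%. In macrophage barcodes 1 of 5 tested was higher (Gcg), against 13.4% of all genes, and 3 were lower (Ins1, Sst and Iapp), against 10.6%. Without barcodes of 10 or more UMIs of the 10 transcripts, the macrophage ratio of Ins1 was 0.777, no longer 2-fold lower. That of Ins2 was then 3.96 (1.02 to 34.0), at least 2-fold higher, and Gcg stayed higher at 6.29. Iapp stayed lower at 0.466, with an interval including 1 (0.125 to 2.11). Sst, with 1 UMI at 12 weeks and 4 at 7 weeks, then fell under the limit for testing. Sst was also the 1 transcript at least 2-fold lower in dendritic (6.41% of all genes) and in B cell barcodes (6.13%), and no transcript was in T cell barcodes (4.39%) or, of the 3 tested, in pDC barcodes (11.5%).

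Insulin was found in all 5 classes at both ages. Ins2 had 34 UMIs in macrophage, 207 in dendritic, 21 in pDC, 139 in B cell and 472 in T cell barcodes at 12 weeks, and 6, 24, 9, 4 and 21 UMIs in the same classes at 7 weeks. Per 10000 UMIs these were 0.706, 0.789, 0.871, 0.373 and 0.426 at 12 weeks, and 0.469, 0.195, 0.379, 0.0348 and 0.0370 at 7 weeks. Ins2 was therefore higher in the myeloid classes than in lymphocytes at either age, and the lymphocytes of 7 weeks were lowest. The 12 over 7 week ratio of Ins2 was 11.5 (7.43 to 18.7) in T cell and 4.04 (2.64 to 6.45) in dendritic barcodes.

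Ins1 had fewer UMIs than Ins2 in every 12 week class. It had 10 UMIs in macrophage, 77 in dendritic, 11 in pDC, 55 in B cell and 166 in T cell barcodes at 12 weeks, and 6, 7, 5, 2 and 20 UMIs at 7 weeks. The 12 over 7 week ratio of Ins1 was 4.24 (2.66 to 7.13) in T cell, 8.50 (2.24 to 71.9) in B cell and 5.15 (2.38 to 13.2) in dendritic barcodes. Ins2 made up 73.1% (70.5 to 75.6) of the insulin UMIs over all kept barcodes at 12 weeks and 61.9% (51.9 to 71.2) at 7 weeks. In T cell barcodes Ins2 made up 74.0% (70.4 to 77.3) of insulin UMIs at 12 weeks, against 51.2% (35.1 to 67.1) at 7 weeks. Reads that fit both genes could limit how closely this share can be read, and their number was not measured.

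Gcg (chr2:62474530-62483650, minus strand), which encodes proglucagon, differed widely between the libraries. It had 27 UMIs in macrophage, 249 in dendritic, 14 in pDC, 233 in B cell and 776 in T cell barcodes at 12 weeks. At 7 weeks it had 29 UMIs in T cell barcodes and 1 UMI in each of the other 4 classes. Gcg was thus a leading transcript of every 12 week class and was seen at 7 weeks in single UMIs outside T cells. Per 10000 UMIs it was 0.561, 0.949, 0.581, 0.626 and 0.70 in these classes at 12 weeks, a narrow range across cell types of different depth. The 12 over 7 week ratio of Gcg was 13.7 (9.45 to 20.6) in T cell barcodes. With 1 UMI on the 7 week side the ratios in B cell and dendritic barcodes, 72.0 (12.8 to 2857) and 117 (20.7 to 4625), are fixed only within wide limits. One dendritic barcode held 71 of the 249 UMIs, and without barcodes of 10 or more UMIs of the 10 transcripts the dendritic level of Gcg was 0.673 per 10000 at 12 weeks.

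Sst (chr16:23889573-23890958, minus strand), the somatostatin gene, ran opposite to Gcg and insulin. It had 1 UMI in macrophage, 16 in dendritic, 0 in pDC, 7 in B cell and 90 in T cell barcodes at 12 weeks, and 17, 18, 4, 12 and 69 UMIs at 7 weeks. The 0 of pDC barcodes at 12 weeks allows up to 0.124 per 10000 UMIs (3 counts). The 12 over 7 week ratio of Sst was 0.416 (0.199 to 0.865) in dendritic, 0.180 (0.0601 to 0.497) in B cell and 0.667 (0.482 to 0.926) in T cell barcodes. In T cell barcodes 48 of the 90 UMIs at 12 weeks came from 1 barcode, and without barcodes of 10 or more UMIs of the 10 transcripts the ratio was 0.292 (0.192 to 0.438). In macrophage barcodes the Sst ratio was 0.0156 (0.000374 to 0.0998) with the single 7 week barcode of 13 Sst UMIs and 0.0582 (0.00118 to 0.589) without it. Sst was below 1 in every class that gave a ratio.

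Iapp (chr6:142298423-142303961, plus strand) encodes amylin, which beta cells release with insulin. It overlaps Slco1a5 on the other strand, and the sources used here do not say whether strand was used in counting. It had 8 UMIs in macrophage, 28 in dendritic, 3 in pDC, 30 in B cell and 103 in T cell barcodes at 12 weeks, and 8, 1, 1, 4 and 28 UMIs at 7 weeks. Iapp was higher at 12 weeks in T cell barcodes, at a ratio of 1.88 (1.23 to 2.97), and lower in macrophage barcodes, at 0.266 (0.0870 to 0.812). Without barcodes of 10 or more UMIs of the 10 transcripts these ratios were 1.53 (0.986 to 2.44) and 0.466 (0.125 to 2.11), and both intervals then included 1.

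The remaining 5 transcripts were rare outside the barcodes described apart. Chga (chr12:102554969-102565028, plus strand), which encodes the granule protein chromogranin A, had 25 UMIs in T cell barcodes at 12 weeks against 3 at 7 weeks, a ratio of 4.26 (1.3 to 22.1). In the other classes Chga had 0 UMIs in macrophage, 8 in dendritic, 1 in pDC and 9 in B cell barcodes at 12 weeks, and 0, 1, 0 and 0 at 7 weeks. Pyy (chr11:102106676-102107832, minus strand), the peptide YY gene, had 12 UMIs in T cell barcodes at 12 weeks and 1 at 7 weeks, at a ratio of 6.14 (0.908 to 262), and no more than 2 in any other class. Its neighbour Ppy (chr11:102099930-102101319, minus strand), the pancreatic polypeptide gene 5356 bases away, had 2 UMIs in T cell barcodes at 12 weeks and 4 at 7 weeks. Ppy was also seen at 7 weeks in dendritic barcodes, with 3 UMIs, and in pDC barcodes, with 1, and nowhere else. Chgb (chr2:132781278-132795079, plus strand), the chromogranin B gene, had 1 UMI in T cell barcodes at 12 weeks and 4 at 7 weeks, and 0 in the other classes. Pcsk2 (chr2:143546156-143816285, plus strand) encodes a protease that processes prohormones and overlaps the antisense genes Pcsk2os1 and Pcsk2os2. It had 5 UMIs in T cell, 2 in B cell and 1 in macrophage barcodes at 12 weeks, and 0 in all 5 classes at 7 weeks.

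**Figure D2:**
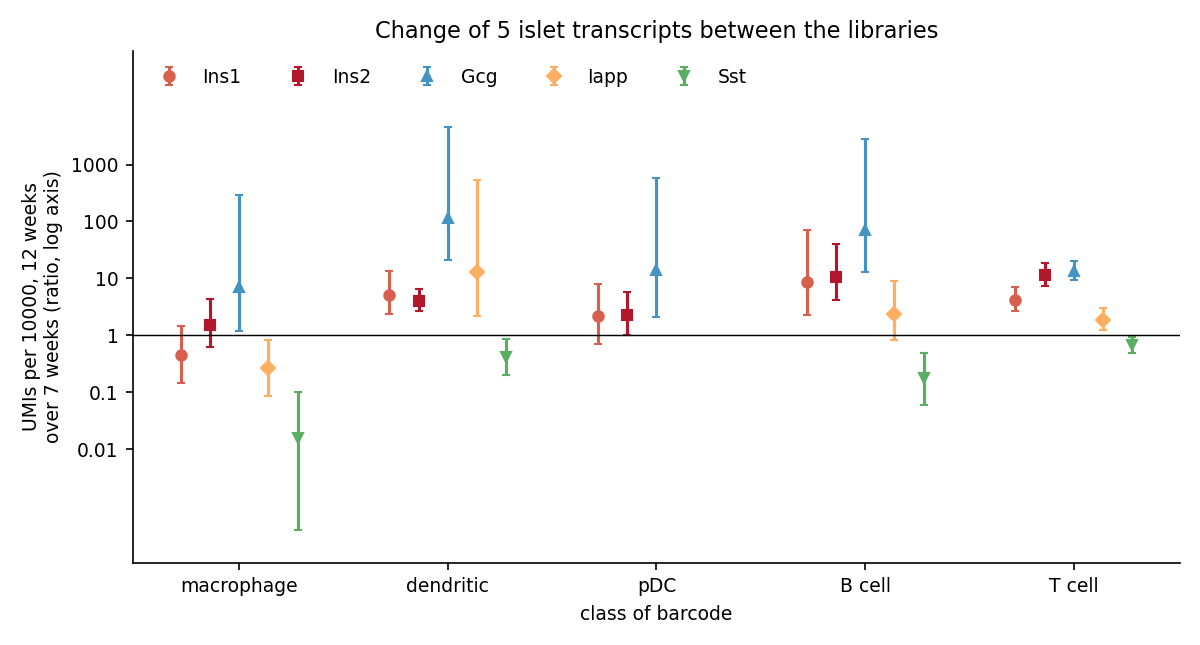
Ratio of UMIs per 10000 at 12 weeks over 7 weeks (log axis) for Ins1, Ins2, Gcg, Iapp and Sst in each class, with exact conditional binomial 95% intervals for counting error; a gene with under 10 UMIs over both ages in a class is not drawn. Gcg lies highest in every class but has an upper limit above 100 outside T cell barcodes, and Sst lies below 1 wherever it is drawn.

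The makeup of the UMIs differed between the libraries and, for insulin, between myeloid cells and lymphocytes of 1 library. Gcg made up 32.9% of the UMIs of the 10 transcripts in macrophage, 42.5% in dendritic, 28.0% in pDC, 48.8% in B cell and 47.0% in T cell barcodes at 12 weeks. At 7 weeks Gcg made up 2.63%, 1.79%, 4.76%, 4.35% and 16.2% in these classes. Sst made up 1.22%, 2.73%, 0%, 1.47% and 5.45% in these classes at 12 weeks, and 44.7%, 32.1%, 19.0%, 52.2% and 38.5% at 7 weeks. The barcodes described apart showed the same contrast, since Gcg held 54.8% of their UMIs of the 10 transcripts at 12 weeks and none at 7 weeks, when Sst held 77.3%.

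Of the barcodes described apart, 1 at 12 weeks held 14697 of their 14707 Ins2 UMIs and 7913 of their 8053 Ins1 UMIs. Only 1 barcode was described apart at 7 weeks. At 12 weeks Ins1 held 13.8% and Ins2 25.3% of the UMIs of the 10 transcripts in the barcodes described apart. Insulin came near their sum in lymphocytes at 12 weeks, but did not follow those barcodes at 7 weeks, when they held none. It made up 53.7% (42.3 to 64.7) of these UMIs in macrophage, 48.5% (44.3 to 52.6) in dendritic, 64.0% in pDC, 40.7% in B cell and 38.6% in T cell barcodes at 12 weeks, and 31.6%, 55.4%, 66.7%, 26.1% and 22.9% at 7 weeks. With macrophage, dendritic and pDC barcodes pooled as myeloid and B and T cell barcodes as lymphocytes, insulin made up 50.1% in myeloid cells and 39.1% in lymphocytes at 12 weeks, a difference of 11.1 percentage points (6.86 to 15.2). At 7 weeks insulin made up 49.6% in myeloid cells and 23.3% in lymphocytes, a difference of 26.3 points (15.3 to 36.7), although no barcode described apart at that age held an insulin UMI. Without barcodes of 10 or more UMIs of the 10 transcripts the difference was 6.32 points (1.49 to 11.2) at 12 weeks and 31.7 points (19.7 to 42.8) at 7 weeks. Set against T cell barcodes by class, it was then 13.8 points (2.84 to 24.5) in macrophage, 2.55 (-2.96 to 8.17) in dendritic and 24.2 (10.1 to 36.3) in pDC barcodes at 12 weeks. At 7 weeks it was 12.8 (-7.68 to 38.9), 32.5 (17.9 to 45.9) and 43.8 points (21.4 to 60.8) in these classes. The Gcg share was lower in myeloid cells than in lymphocytes at both ages, by 7.00 points (2.80 to 11.1) at 12 weeks and 12.2 points (5.85 to 18.1) at 7 weeks.

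**Figure D3:**
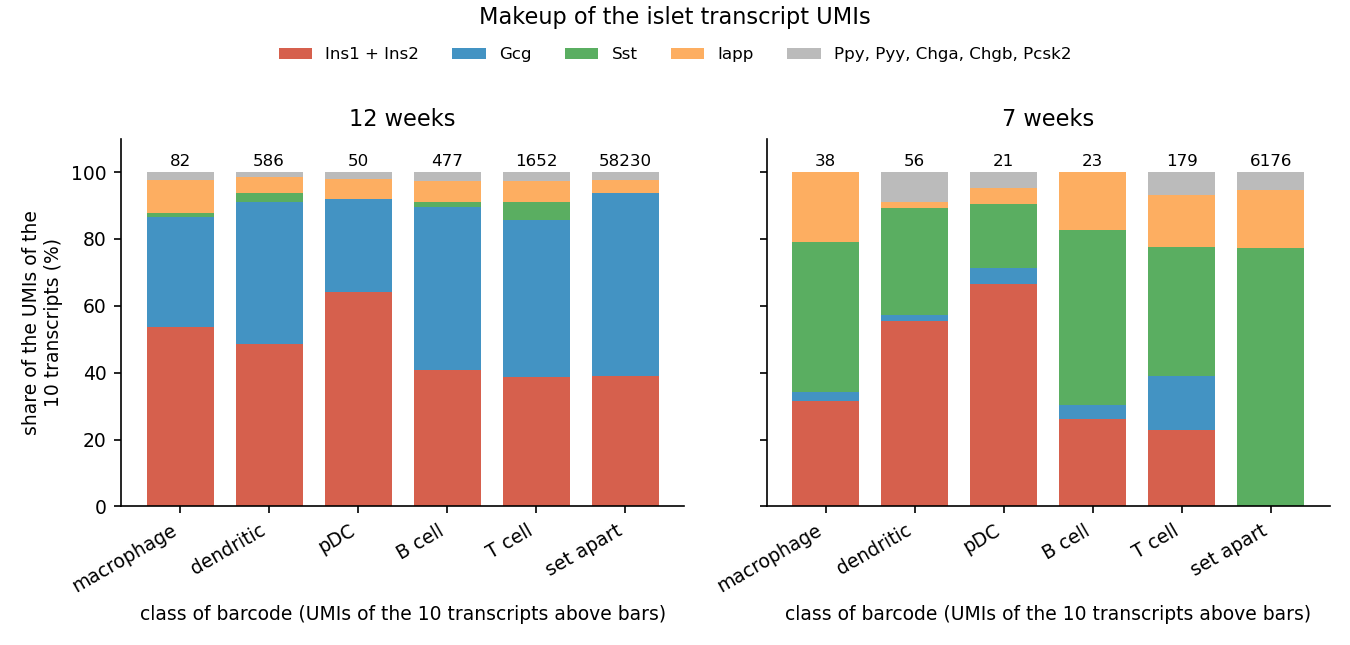
Share (%) of the UMIs of the 10 transcripts held by insulin, Gcg, Sst, Iapp and the other 5 genes in each class and in the barcodes set apart, 12 weeks left and 7 weeks right, with the number of UMIs above each bar. Gcg (blue) fills 28.0% to 48.8% of the classes at 12 weeks, and Sst (green) 19.0% to 52.2% at 7 weeks.

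RNA free in a library reaches every droplet, so each class was set against T cell barcodes of its own library. At 12 weeks insulin per 10000 UMIs was 1.59 (1.14 to 2.16) times the T cell level in macrophage, 1.88 (1.63 to 2.17) in dendritic, 2.31 (1.57 to 3.29) in pDC and 0.905 (0.767 to 1.06) in B cell barcodes. The same ratio of Gcg was 0.801 (0.524 to 1.17), 1.36 (1.17 to 1.57), 0.830 (0.452 to 1.40) and 0.894 (0.769 to 1.04) in these classes. That of the acinar genes, without barcodes above 1%, was 0.699 (0.561 to 0.861), 0.826 (0.755 to 0.903), 0.798 (0.595 to 1.05) and 1.05 (0.982 to 1.13). Per 10000 UMIs, insulin was thus above the T cell level in the 3 myeloid classes, where the acinar genes were at or below it. Dendritic barcodes owed part of this to a few barcodes, since without those of 10 or more UMIs their insulin ratio was 1.16 (0.971 to 1.39) and their Gcg ratio 1.0 (0.841 to 1.18), while the insulin ratio was 1.68 (1.21 to 2.28) in macrophage and 2.44 (1.66 to 3.48) in pDC barcodes. Counted per barcode, the acinar ratio was above 1 in macrophage, at 1.57 (1.26 to 1.93), and dendritic barcodes, at 1.69 (1.55 to 1.85). In pDC barcodes it was 0.897 (0.669 to 1.18). The insulin ratio per barcode, over all barcodes, was 3.57 (2.57 to 4.85), 3.86 (3.35 to 4.45) and 2.60 (1.76 to 3.71) in these classes.

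At 7 weeks insulin was 13.0 (6.20 to 25.1) times the T cell level in macrophage, 3.49 (2.11 to 5.70) in dendritic, 8.15 (4.10 to 15.3) in pDC and 0.721 (0.25 to 1.71) in B cell barcodes. Without the 1 macrophage barcode of 24 UMIs the macrophage ratio was 6.16 (1.90 to 15.6), from 5 insulin UMIs. The acinar ratio at 7 weeks, without barcodes above 1% acinar UMIs, was 0.791 (0.214 to 2.05) in macrophage, 1.44 (1.09 to 1.89) in dendritic, 0.639 (0.232 to 1.41) in pDC and 0.685 (0.455 to 1.0) in B cell barcodes. Over all barcodes the acinar ratio in B cell barcodes was 2.64 (2.10 to 3.31) at 7 weeks, and at 12 weeks the acinar ratios ran between 0.203 in macrophage and 0.325 in B cell barcodes, set against a T cell level of 9.30 per 10000 UMIs in which 6 barcodes held 7317 of the acinar UMIs. Sst, the transcript with the most UMIs over all classes at 7 weeks, was 1.20 (0.674 to 2.05) times the T cell level in dendritic and 1.38 (0.367 to 3.71) times in pDC barcodes, both intervals including 1. In macrophage barcodes the Sst ratio was 10.9 (6.02 to 18.8), and 2.93 (0.776 to 7.84) without that 1 barcode. Insulin at 7 weeks thus stood further above the T cell level in dendritic and pDC barcodes than Sst or the acinar genes did.

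**Figure D4:**
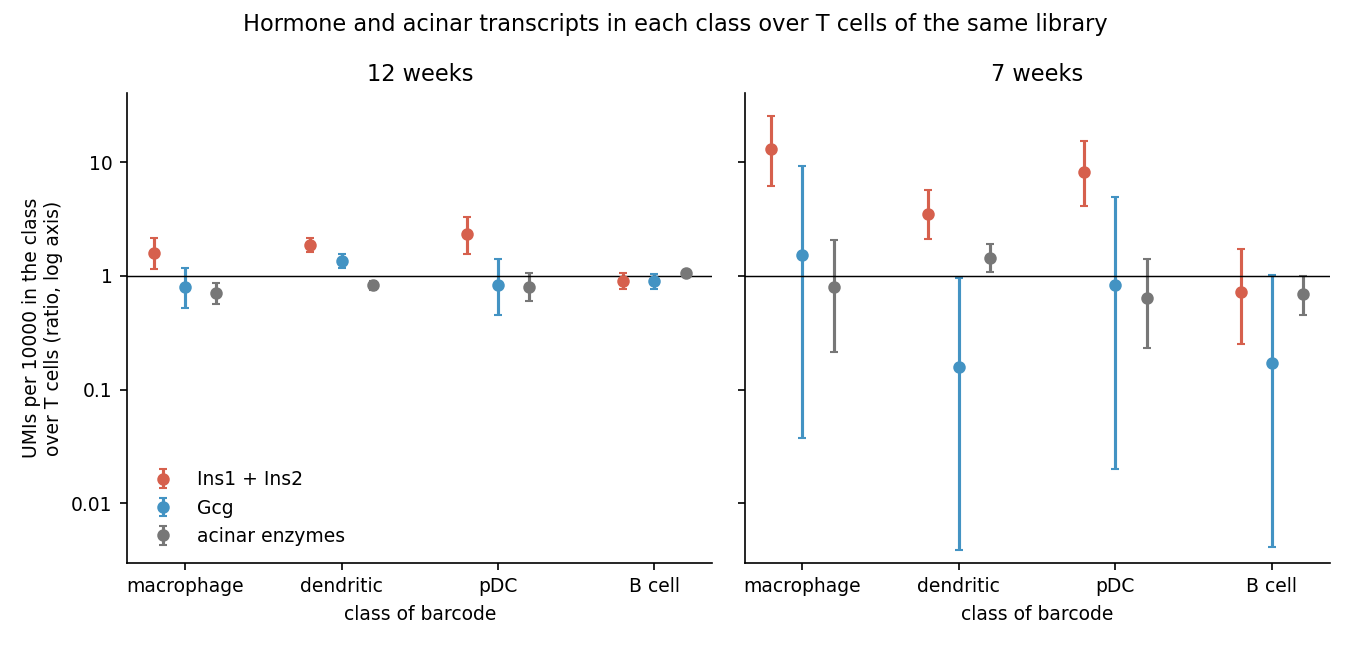
Ratio of UMIs per 10000 in each class over T cell barcodes of the same library (log axis) for insulin, Gcg and the acinar genes without barcodes above 1% acinar UMIs, 12 weeks left and 7 weeks right, with exact conditional binomial 95% intervals for counting error. Insulin lies above 1 in the 3 myeloid classes at both ages, from 1.59 to 13.0, and at 0.905 and 0.721 in B cell barcodes.

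The count of transcripts at least 2-fold from the T cell level is read beside the share of all tested genes, which also holds the genes that define each cell type. At 12 weeks 7 of the 10 transcripts were tested. In pDC barcodes 2 were higher (Ins1 and Ins2), against 19.1% of all genes, and none was lower (11.5%). None was higher in macrophage (15.8%), dendritic (16.8%) or B cell barcodes (7.75%). Sst was lower in macrophage barcodes (19.4% of all genes), Pyy in dendritic barcodes (14.8%), and both in B cell barcodes (18.7%). Pyy had 1 UMI in dendritic and 2 in B cell barcodes. Its ratios, 0.352 (0.00824 to 2.38) and 0.496 (0.0539 to 2.23), both had intervals including 1. The Sst ratios to the T cell level were 0.256 in macrophage and 0.232 in B cell barcodes. The T cell level holds the 1 barcode of 48 Sst UMIs, and without barcodes of 10 or more UMIs of the 10 transcripts these ratios were 0.585 and 0.530, so neither reached 2-fold. At 7 weeks 5 of the 10 were tested. Higher were Ins1, Ins2, Sst and Iapp in macrophage (4 of 5, against 16.1% of all genes), Ins2 in dendritic (1 of 5, 13.9%), Ins1 and Ins2 in pDC (2 of 5, 16.6%) and none in B cell barcodes (7.56%). Lower were Gcg and Iapp in dendritic (2 of 5, 15.0%), Ins1 and Gcg in B cell (2 of 5, 16.0%) and none in macrophage (13.7%) or pDC barcodes (9.98%).

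A ratio between transcripts of 1 class does not depend on how deep its barcodes are, and was added after seeing the data. Of the summed insulin and acinar UMIs, without barcodes above 1% acinar UMIs, insulin made up 32.6% (24.8 to 41.2) in macrophage, 32.6% (29.5 to 35.9) in dendritic, 38.1% (27.7 to 49.3) in pDC, 15.5% (13.5 to 17.6) in B cell and 17.5% (16.3 to 18.8) in T cell barcodes at 12 weeks. At 7 weeks it made up 75.0% (47.6 to 92.7), 30.7% (21.9 to 40.7), 70.0% (45.7 to 88.1), 16.2% (6.19 to 32.0) and 15.5% (11.3 to 20.4) in these classes. B and T cell barcodes thus had close to the same proportion of insulin to acinar RNA at both ages, and each myeloid class had more insulin. Without barcodes of 10 or more UMIs of the 10 transcripts the share in dendritic barcodes at 12 weeks was 22.3%, still 5.57 points (2.40 to 8.99) above T cell barcodes. Of the insulin and Gcg UMIs at 12 weeks, insulin made up 62.0% (49.7 to 73.2) in macrophage, 53.3% (48.9 to 57.6) in dendritic, 69.6% (54.2 to 82.3) in pDC, 45.4% (40.6 to 50.3) in B cell and 45.1% (42.5 to 47.8) in T cell barcodes. In dendritic barcodes this share was 48.5% without barcodes of 10 or more UMIs, 3.79 points from the T cell share with an interval that includes 0 (-2.22 to 9.81). RNA free in the droplet, material taken up by the cell and a second cell in the droplet cannot be told apart in these counts.

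Per barcode, most cells held few of these UMIs. At 12 weeks the mean was 2.41 in macrophage, 2.89 in dendritic, 1.47 in pDC, 0.729 in B cell and 0.938 in T cell barcodes, and at 7 weeks it was 3.45, 0.709, 0.913, 0.13 and 0.228. The median total depth of these classes was 12902, 12316, 6534, 4623 and 4804 UMIs at 12 weeks, and 11438, 14306, 9170, 5164 and 5540 at 7 weeks. Macrophage and dendritic barcodes were thus more than 2-fold deeper than lymphocytes. Among T cell barcodes at 12 weeks, the 587 shallowest held 0.726 UMIs of the 10 transcripts each, the 587 of middle depth 0.722 and the 587 deepest 1.37. In the shallowest group 1 barcode held 69 of the 426 UMIs, so its mean depends on that barcode. At 7 weeks the mean rose with depth, from 0.122 in the shallowest T cell barcodes to 0.211 in the middle and 0.352 in the deepest.

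At least 1 UMI of the 10 transcripts was found in 76.5% of macrophage, 81.3% of dendritic, 67.6% of pDC, 50.6% of B cell and 51.8% of T cell barcodes at 12 weeks, and in 72.7%, 36.7%, 60.9%, 10.2% and 17.0% at 7 weeks. With each barcode thinned to 3000 UMIs, which left out none at 12 weeks and 45 T cell and 6 B cell barcodes at 7 weeks, an insulin UMI was found in 26.5% of macrophage, 24.1% of dendritic, 23.5% of pDC, 15.1% of B cell and 15.5% of T cell barcodes at 12 weeks. At 7 weeks it was found in 27.3%, 8.86%, 26.1%, 2.34% and 1.89%. Lymphocytes, which should lack insulin RNA, are the comparison here, although 3 T cell barcodes of 12 weeks held insulin at 10 or more UMIs. The interval at 12 weeks was 18.4% to 30.6% in dendritic and 13.8% to 17.3% in T cell barcodes. The pDC interval at 12 weeks, 10.7% to 41.2%, included the T cell share, and at 7 weeks, 10.2% to 48.4%, it did not. A thinned Gcg UMI was found in 20.6%, 24.1%, 11.8%, 19.1% and 17.9% of these classes at 12 weeks, and its macrophage interval, 8.70% to 37.9%, included the T cell share. The dendritic share of Gcg equalled that of insulin, and its interval, 18.4% to 30.6%, lay above the T cell share of Gcg.

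A few barcodes carried far more than the rest of their class. At least 10 UMIs of the 10 transcripts were held by 15 barcodes at 12 weeks, 8 in the dendritic and 7 in the T cell class, and by 1 macrophage barcode at 7 weeks. In 7 of the 8 dendritic barcodes insulin made up at least 80.0% of these UMIs, and the largest of them held 28 of Ins2 and 11 of Ins1 among 44. The other dendritic barcode held 71 Gcg UMIs and 1 of Pyy among 14686 UMIs in all, with none of insulin. Of the 7 T cell barcodes, 3 held only insulin, 3 were led by Gcg and 1 held 48 Sst, 18 Iapp and 3 Pyy UMIs. These barcodes therefore tended to carry the RNA of 1 hormone, unlike the mixture seen across their class. No B cell or pDC barcode reached 10 at either age, and their highest counts were 7 in each class at 12 weeks, and 2 in B cell and 3 in pDC barcodes at 7 weeks.

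**Figure D5:**
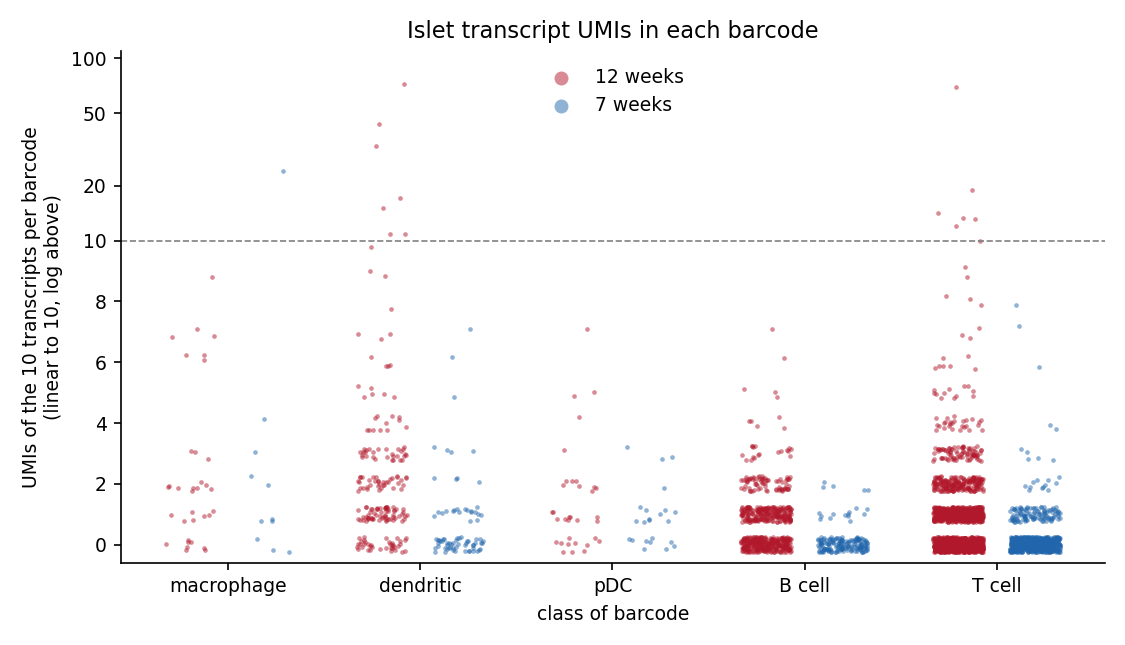
UMIs of the 10 transcripts in each barcode, by class, 12 weeks (red) left of 7 weeks (blue); the axis is linear to 10 (dashed line) and logarithmic above, and points are spread by a small random offset. The 15 barcodes of 10 or more at 12 weeks lie in the dendritic and T cell classes, and the 1 at 7 weeks in the macrophage class.

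The barcodes in which the 10 transcripts exceeded 10% of UMIs held 95.1% of all UMIs of these genes at 12 weeks and 94.8% at 7 weeks. They were 5 of 2812 barcodes at 12 weeks, 0.178% (0.0578 to 0.414, exact binomial), and 1 of 1113 at 7 weeks, 0.0898% (0.00227 to 0.50). The lowest of them stood at 28.6% at 12 weeks and 28.0% at 7 weeks, and the highest barcodes below the limit at 1.75% and 0.289%, so no barcode lay near the limit. At 12 weeks 1 barcode was led by insulin, with 14697 Ins2, 7913 Ins1 and 2193 Iapp UMIs among 37542. It also held the beta cell genes G6pc2 (6 UMIs), Nkx6-1 (5), Pdx1 (5), Ucn3 (3) and Slc2a2 (2), but 0 of Mafa, and 4 UMIs of Gcg. The other 4 were led by Gcg, with 15232, 6688, 5456 and 4525 UMIs, and held Ttr, which encodes a transport protein abundant in alpha cells, at 1165, 110, 86 and 72 UMIs.

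The 7 week barcode was led by Sst, with 4771 UMIs, and held 1068 of Iapp, 175 of Pyy, 146 of Rbp4 and 6 of Hhex, a factor of delta cells. It held no UMI of Ins1, Ins2, Gcg or Ppy. Hormone genes thus led in 3 different combinations, and no barcode at either age was led by Ppy. The highest counts of Ppy and Pyy at 12 weeks were in Gcg-led barcodes, at 8 and 56 UMIs. The leukocyte genes Ptprc, Coro1a and Laptm5 together had 0 to 12 UMIs in these barcodes at 12 weeks and 3 at 7 weeks, although they are deeper than most, against a median of 14 at 12 weeks and 16 at 7 weeks in T cell barcodes. The granule genes of the set-apart barcodes included Pcsk2, at 40 to 159 UMIs at 12 weeks and 72 at 7 weeks, Chga at 15 to 370 and 41, and Chgb at 5 to 38 and 49.

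Other islet genes, from lists chosen with earlier results of these data known, differed in where their UMIs lay. Of 7 further autoantigen genes, Slc30a8, a zinc transporter of insulin granules, had 29 UMIs in the set-apart barcodes and 0 in all other kept barcodes at 12 weeks, and 1 and 0 at 7 weeks. G6pc2, an islet glucose phosphatase, had 7 and 1 at 12 weeks and none at 7 weeks. Ptprn had 46 and 7 at 12 weeks and 9 and 2 at 7 weeks. Gad1 had no UMI in the set-apart barcodes at either age, but 28 in other kept barcodes at 12 weeks and 3 at 7 weeks, and Gad2 had 3 UMIs in all, in kept barcodes of 12 weeks. Ica1, which encodes an islet cell autoantigen, had 1 UMI in the set-apart barcodes and 25 in other kept barcodes at 12 weeks, and 3 and 10 at 7 weeks. In T cell barcodes Ica1 was the 1 autoantigen gene of this list that was tested, with 20 UMIs at 12 weeks and 5 at 7 weeks. It was at least 2-fold higher at 12 weeks, against 4.39% of all genes. In B cell barcodes Gad1 was the 1 tested, with 26 of its 28 UMIs at 12 weeks and all 3 at 7 weeks. It was 2.68-fold higher at 12 weeks, where 4.72% of all genes were at least 2-fold higher. Among the 11 granule genes, Pcsk1, a prohormone protease, had 1 UMI in the set-apart barcodes and 10 in kept barcodes at 12 weeks, and 2 and 2 at 7 weeks. In kept barcodes Ttr had 106 UMIs at 12 weeks and 2 at 7 weeks, and Scg5 had 150 and 47. In T cell barcodes 6 granule genes were tested and 3 were at least 2-fold higher at 12 weeks (Pcsk1, Pcsk1n and Ttr), against 4.39% of all genes. Of 10 islet transcription factors, Hhex alone had more than 3 UMIs in kept barcodes at either age, 657 at 12 weeks and 256 at 7 weeks, and leukocytes are known to express it.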

How the data were processed

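Each library was deposited as a matrix of raw UMI counts, whole numbers by gene and barcode. Cell Ranger 1.3.1 and the build mm10 are named per the submitters' processing notes, and the annotation behind the counts is not given in the sources used here. Barcodes with under 200 genes or over 10% mitochondrial UMIs were removed (8 at 12 weeks, 4 at 7 weeks). Doublets were scored with Scrublet (scanpy 1.11.5), and the highest scores were removed at the rate expected from the number of barcodes (63 barcodes, 2.25%, at 12 weeks and 10, 0.902%, at 7 weeks). This left 2736 barcodes at 12 weeks and 1098 at 7 weeks beside those set apart, of which 50 and 24 met no class rule. The class rules are thresholds on UMIs, and barcodes meeting several rules went to the first in the order macrophage, dendritic, pDC, B, T. Counts were summed per class and divided by the class total. Sums carry exact Poisson, ratios exact conditional binomial and shares exact (Clopper-Pearson) 95% intervals, and differences of shares carry Newcombe intervals (Python 3.11.15, scipy 1.17.1). A ratio against 0 uses 3 counts. The ratio step was tested on simulated data for 12 over 7 weeks in T cell barcodes: of 12041 genes, 200 were changed 4-fold, 100% of those were recovered at 2-fold, 3.33% of the others passed 2-fold, and 95.7% of their intervals held the true ratio. The changed genes of this simulation were drawn from genes with many UMIs, above the counts of most of the 10 transcripts at 7 weeks. Its counts had only the Poisson error that the intervals assume. It therefore cannot show how the ratios behave at low counts or with spread between barcodes. The members and lists were chosen with earlier results of these data known. The rule for named genes took all 10 members in every class, from other lists the members with the most UMIs, and 10 genes of most similar pattern. Other genes of those lists, among them Slc30a8, G6pc2 and Gad2, were named after their values were seen. Alternatives are given in the closing section. Coordinates and transcripts are from GENCODE vM21 (GRCm38).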

Additional observations from a re-analysis of the deposited data

Results flagged for a closer look

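The 12 over 7 week ratio of the 10 transcripts ran in opposite directions between classes. It was 4.90 in dendritic, 2.35 in pDC, 6.41 in B cell and 4.72 in T cell barcodes, against 0.574 in macrophage barcodes, with intervals that do not meet. The difference between classes was not tested, since each age has 1 library. The macrophage value rests on 11 barcodes at 7 weeks, and without the 1 that held 24 of their 38 UMIs it was 1.36.

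Iapp had the same split, at 13.1 in dendritic and 1.88 in T cell barcodes, against 0.266 in macrophage barcodes. The dendritic value rests on 1 UMI at 7 weeks, and the difference was not tested.

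The barcodes that met no class rule also held these transcripts, at 1.38 per 10000 UMIs in the 50 barcodes of 12 weeks and 0.419 in the 24 of 7 weeks. Their intervals, 1.01 to 1.85 and 0.136 to 0.978, include the T cell level of their library, 1.49 at 12 weeks and 0.316 at 7 weeks.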

How the results depend on the processing

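Of 310 values recomputed under the alternatives, 249 moved by less than their counting interval with the direction unchanged, 53 moved further and 8 turned round; the cause was not tested. No doublet removal, no filter on genes or mitochondrial UMIs, a limit of 1%, T cells by at least 3 UMIs, and limits of 5% or 20% for the barcodes set apart moved none. The macrophage 12 over 7 week ratio turned to 1.15 with barcodes meeting exactly 1 rule, 1.31 without the top barcode of each class, 1.05 thinned to 3000 UMIs and 1.36 without barcodes of 10 or more UMIs, an alternative chosen after seeing the data. With no limit on the 10 transcripts, the ratio to T cells turned to 0.0688 in pDC at 12 weeks, and to 0.266 in macrophage, 0.0408 in dendritic and 0.0792 in pDC barcodes at 7 weeks. That setting also gave ratios to T cells of 0.0564 in macrophage, 3.30 in dendritic and 0.0425 in B cell barcodes at 12 weeks and 0.0179 in B cell barcodes at 7 weeks, levels of 99.6 in dendritic and 30.2 in T cell barcodes at 12 weeks and 11.2 in T cell barcodes at 7 weeks, and 12 over 7 week ratios of 219 in dendritic and 2.70 in T cell barcodes. Counting a barcode in every class whose rule it met gave levels of 1.57 in T cell barcodes at 12 weeks, and 0.681 in dendritic and 0.368 in T cell barcodes at 7 weeks, a dendritic 12 over 7 week ratio of 3.14 and a dendritic ratio to T cells of 1.36 at 12 weeks. With exactly 1 rule met, the levels were 4.24 in the 4 macrophage and 1.99 in dendritic barcodes at 12 weeks and 0.124 in B cell barcodes at 7 weeks, the dendritic 12 over 7 week ratio was 3.42, and the ratios to T cells at 12 weeks were 2.85 in macrophage and 1.34 in dendritic barcodes. Without the top barcode of each class, the levels were 1.97 in dendritic barcodes at 12 weeks and 1.25 in macrophage barcodes at 7 weeks, the macrophage ratio to T cells at 7 weeks was 4.13, and the insulin share in dendritic barcodes at 12 weeks was 55.3%. Without barcodes of 10 or more UMIs, the levels were 1.49 in dendritic and 1.37 in T cell barcodes at 12 weeks and 1.25 in macrophage barcodes at 7 weeks, the dendritic 12 over 7 week ratio was 3.28, the ratios to T cells were 1.09 in dendritic barcodes at 12 weeks and 3.95 in macrophage barcodes at 7 weeks, and the insulin share in dendritic barcodes at 12 weeks was 42.4%. Per barcode, the ratios to T cells were 2.57 in macrophage and 3.08 in dendritic barcodes at 12 weeks, and 15.1 and 3.10 at 7 weeks. As a mean over barcodes, the levels at 12 weeks were 2.59 in dendritic and 1.61 in T cell barcodes. Thinned to 3000 UMIs, the levels at 12 weeks were 2.55 in macrophage, 2.92 in dendritic, 1.42 in B cell and 1.59 in T cell barcodes, the pDC 12 over 7 week ratio was 1.28, and the ratios to T cells at 12 weeks were 1.61 in macrophage and 1.84 in dendritic barcodes. Thinning set the share of barcodes with a UMI of the 10 transcripts to 41.2% in macrophage, 46.8% in dendritic, 32.4% in pDC, 33.9% in B cell and 33.0% in T cell barcodes at 12 weeks, and to 36.4% in macrophage, 12.7% in dendritic, 30.4% in pDC and 9.47% in T cell barcodes at 7 weeks. No paired analysis was possible because each age has 1 library. The 11 macrophage and 23 pDC barcodes of 7 weeks limit what can be read from those classes, and no interval covers the spread between mice or libraries.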

Other observations

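The Gcg-led barcodes set apart at 12 weeks held transcripts of antigen presentation, a comparison chosen after seeing their leading genes. The class II genes H2-Aa and Cd74 had 39 and 57, 25 and 52, 25 and 73, and 9 and 17 UMIs in these 4 barcodes, and 6 and 4 UMIs in the insulin-led barcode. In 95% of T cell barcodes at 12 weeks H2-Aa had at most 3 UMIs and Cd74 at most 2, but most of these barcodes are shallower. Per 10000 UMIs H2-Aa stood at 9.27, 19.6, 16.0 and 3.72 in the Gcg-led barcodes, against 1.87 over T cell barcodes. Cd74 stood at 13.5, 40.8, 46.7 and 7.04, against 2.62. The insulin-led barcode was below the T cell level for both, at 1.60 for H2-Aa and 1.07 for Cd74. The class I light chain B2m stood at 162, 259, 225 and 119 per 10000 UMIs in the Gcg-led barcodes, 32.2 in the insulin-led one and 55.2 over T cell barcodes. In the Sst-led barcode of 7 weeks H2-Aa had 7 UMIs, Cd74 had 1 and B2m stood at 29.9 per 10000. Ciita, which drives class II genes, had 0 UMIs in all 6 barcodes. The secreted phosphoprotein Spp1 had 78, 52 and 61 UMIs in 3 of the Gcg-led barcodes and 0 in the other 3 barcodes set apart. The part of a second cell in the droplet was not tested for these values.

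The genes with the most UMIs in these barcodes that are not among the 10 transcripts were Malat1, mitochondrial and ribosomal protein genes, and secretory genes such as Resp18 and Pcsk1n. Resp18 stood at 102 per 10000 in the Sst-led barcode, against 0.0123 over T cell barcodes of 7 weeks, and at 58.4 in 1 Gcg-led barcode, against 0.0135 over T cell barcodes of 12 weeks. Tmem27 stood at 27.8 per 10000 in the Gcg-led barcode with the most Ttr, against 0.00631 over T cell barcodes.

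Over the 10 points of 5 classes at 2 ages, the genes whose log2(CPM + 1) was most like that of the summed 10 transcripts, among 10649 candidates, were Ppox (Pearson r 0.911), Arf1 (0.885), Lancl2 (0.870), Hsd17b12 (0.863), Qdpr (0.846), Sppl2a (0.839), Prdx1 (0.832), Pgm3 (0.819), Psmf1 (0.817) and Ddx51 (0.811). The points share libraries and depth, and none of these genes is in a list used here. Among the acinar genes, which also differed between the libraries, Try5 came closest at 0.744, and Clps stood at 0.570 and Prss2 at 0.488.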
